A study of Mus musculus with 24 samples.

Results

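The proteasome is the protease complex that destroys proteins carrying chains of ubiquitin, and its subunits and assembly factors were followed here at the level of mRNA in Schwann cells treated with drugs against focal adhesion kinase (FAK). The members were the genes of the count table whose symbol is Psma, Psmb, Psmc, Psmd, Psme, Psmf or Psmg followed by a number, without the immunoproteasome subunits Psmb8, Psmb9 and Psmb10. This rule found 45 genes of the 49315 in the table and used no measured value. MS03 is an immortalized murine Schwann cell (SC) line that lacks Nf2 (Nf2-/-), made from Nf2 flox/flox cells with Cre, so that every group carried the same deletion and came from a single line. Cells were exposed for 24 hours to dimethyl sulfoxide (DMSO), to 1 of 4 FAK kinase inhibitors (defactinib, VS-4718, GSK2256098 or IN10018, also called ifebemtinib, each at 1 μM), or to 1 of 3 proteolysis targeting chimeras, here called degraders. The degraders were PROTAC FAK degrader 1 at 1 μM, GSK215 at 0.1 μM and BSJ-04-0146 at 0.1 μM. The labels give 3 biological replicates per treatment, so there were 24 libraries of poly(A)-selected RNA in 8 groups.

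The 20S core of the proteasome is a barrel made of rings of alpha and beta subunits, and 3 of the beta subunits (Psmb5, Psmb6 and Psmb7) hold its catalytic sites. The 19S cap binds the ubiquitin chain, removes it and threads the substrate into the core: its ATPase ring (Psmc genes) unfolds the substrate, and its non-ATPase subunits (Psmd genes) receive and deubiquitinate it. Alternative activators (Psme genes), an inhibitory partner (Psmf1) and dedicated chaperones (Psmg genes, Psmd5, Psmd9 and Psmd10) open, restrain or build these particles. A kinase inhibitor blocks the activity of FAK, whereas a degrader joins a FAK ligand to a ligand of an E3 ubiquitin ligase, so that FAK is ubiquitinated and passed to the proteasome. The comparison of the degraders with the kinase inhibitors therefore sets drugs that use this machine beside drugs that do not.

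Total counts per library ranged from 14472462 to 27449516, and all 9 degrader libraries were shallower than all 12 kinase inhibitor libraries. Levels are given below as counts per 1000000 (CPM) on library sizes scaled by the trimmed mean of M values (TMM), and differences as log2 differences from edgeR's quasi-likelihood test with standard errors (SE) and p values adjusted by the Benjamini-Hochberg method over the 16070 genes tested. A gene was called higher or lower when its adjusted p was under 0.05. Of the 45 members, 43 had enough counts to be tested. Of 14 markers of the Schwann lineage, 10 reached 1 CPM in the DMSO mean, Sox2 (54.2 CPM) and Sox10 (20.1 CPM) the highest, and Egr2, S100b and Gap43 were among those that did not. The summed level of the Schwann list ranged from 122 to 399 CPM over the libraries. Among fibroblast markers Col1a2 stood at 1350 CPM and Col1a1 at 392 CPM in DMSO, Dcn, Lum and Thy1 were below 1 CPM, and the summed level of that list ranged from 1026 to 1858 CPM. Only Cd68 of the macrophage markers (3.35 CPM) and none of the endothelial markers reached 1 CPM. The part of these markers in the results was not tested, and in a bulk library fewer cells of a type and less RNA per cell cannot be told apart.

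In the DMSO libraries the members differed 29.9-fold in level per length, from 167 CPM per kilobase of exon for Psma5, an alpha subunit, to 5.58 for Psmd9, a chaperone of the 19S base, with a median of 58.2 over the 43 tested members. Above Psmd9 at the low end came Psmf1 at 5.76, Psmg3 at 12.3 and Psmd5 at 12.7 CPM per kilobase. The highest chaperones, Psmg4 (31.9) and Psmg1 (31.7), lay above the lid subunit Psmd11 (26.4) and the activator Psme4 (23.5) and below all other tested subunits of the core and cap. Psma8, the testis form of an alpha subunit, had a count of 0 in all 24 libraries, which allows up to 0.207 CPM in the smallest library at 3 counts. Psmb11, the thymus form of a catalytic subunit, had 0 to 7 counts per library. These were the 2 members that were not tested.

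Members as a group were lower with the degraders than with the kinase inhibitors. Their summed level was 7596 ± 55.9 CPM in DMSO (SD, n = 3), 6922 ± 100.4 CPM with defactinib, 7235 ± 17.7 CPM with VS-4718, 7269 ± 25.7 CPM with GSK2256098 and 7647 ± 125 CPM with IN10018. It was 6187 ± 191 CPM with PROTAC FAK degrader 1, 6116 ± 51.3 CPM with GSK215 and 6615 ± 207 CPM with BSJ-04-0146. With TMM scaling the highest degrader library (6783 CPM) lay below the lowest kinase inhibitor library (6823 CPM), although this gap was smaller than the spread within the BSJ-04-0146 group. Relative to the DMSO mean, the summed level was 91.1% with defactinib, 95.3% with VS-4718, 95.7% with GSK2256098 and 101% with IN10018, and it was 81.4% with PROTAC FAK degrader 1, 80.5% with GSK215 and 87.1% with BSJ-04-0146. As a share of all counts, which uses no TMM scaling, members took up 0.734% ± 0.0033 (SD, n = 3) in DMSO, 0.677% ± 0.0076 with defactinib, 0.718% ± 0.0043 with VS-4718, 0.709% ± 0.0015 with GSK2256098 and 0.743% ± 0.0094 with IN10018. The share was 0.633% ± 0.012 with PROTAC FAK degrader 1, 0.643% ± 0.0035 with GSK215 and 0.689% ± 0.017 with BSJ-04-0146. On that scale the PROTAC FAK degrader 1 and GSK215 libraries, at most 0.647%, remained below every kinase inhibitor library, whereas the BSJ-04-0146 libraries (0.671% to 0.703%) overlapped the defactinib libraries (0.670% to 0.685%) and had the higher mean.

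**Figure D1:**
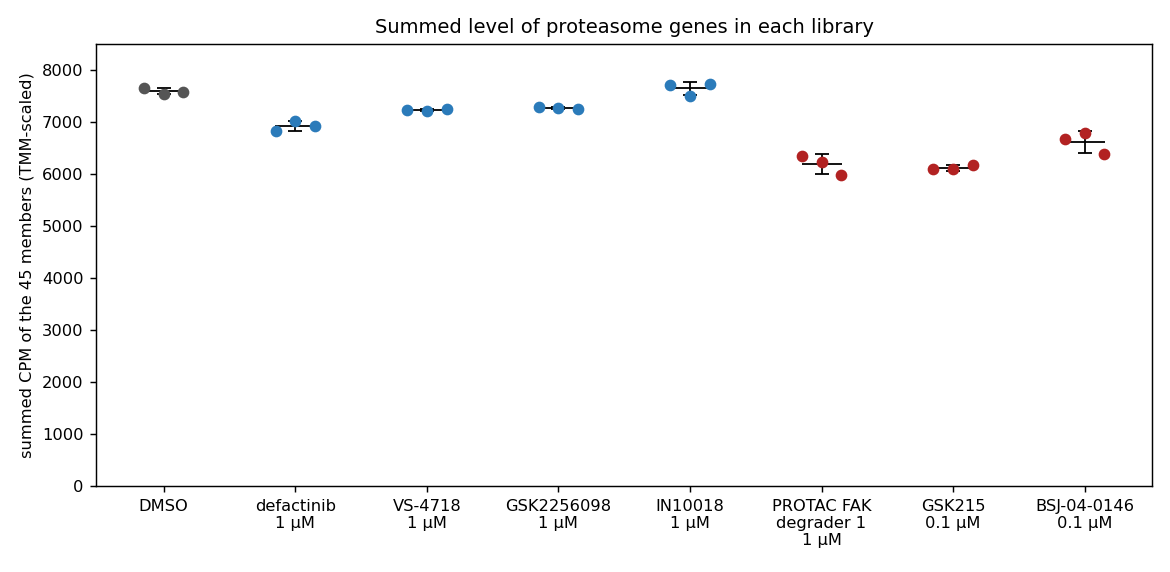
Summed level of the 45 members in each library (CPM, TMM-scaled), by drug and dose; points are libraries (grey DMSO, blue kinase inhibitors, red degraders), the long bar is the mean and the error bar the SD. The 9 degrader libraries lie between 5978 and 6783 CPM, below all 15 other libraries on this scaling; as a share of all counts the BSJ-04-0146 and defactinib libraries overlap.

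Of the 43 members tested, 38 were lower and 3 were higher in the 3 degraders than in the 4 kinase inhibitors, each drug having equal weight, whereas 32.6% of all genes tested were lower and 34.0% were higher. The median log2 difference was -0.22 over the members and 0.014 over all genes. In 23 members the means of all 3 degraders lay below the means of all 4 kinase inhibitors and in 0 members above them, beside 12.6% and 13.6% of all genes. In 10 members (Psmb2, Psmb3, Psmc1, Psmd1, Psmd2, Psmd3, Psmd7, Psmd11, Psmd12 and Psme3) every degrader library lay below every kinase inhibitor library, and in 0 members above it, beside 5.82% and 4.52% of all genes. After thinning to the depth of the smallest library, 37 members were lower and 3 were higher, beside 33.4% and 34.3% of all genes. Scaled by library totals alone, 29 members were lower and 5 were higher, beside 23.7% and 44.1% of all genes, and the median moved from 0.014 to 0.099 for all genes and from -0.22 to -0.13 for the members. Without overlap of libraries 4 members were lower on that scale (Psmd1, Psmd3, Psmd12 and Psme3), beside 3.13% of all genes. The dose of GSK215 and BSJ-04-0146 was 0.1 μM and that of the kinase inhibitors 1 μM, so for them class and dose cannot be told apart.

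At the matched dose of 1 μM, PROTAC FAK degrader 1 alone against the 4 kinase inhibitors had 29 members lower and 5 higher, beside 35.6% and 36.7% of all genes, with a member median of -0.25 and an all-gene median of -0.0029. The class comparison and the dose-matched one share the kinase inhibitor libraries. Without PROTAC FAK degrader 1, the other 2 degraders had 38 members lower and 2 higher than the kinase inhibitors, beside 30.4% and 31.1% of all genes, with a member median of -0.18.

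**Figure D2:**
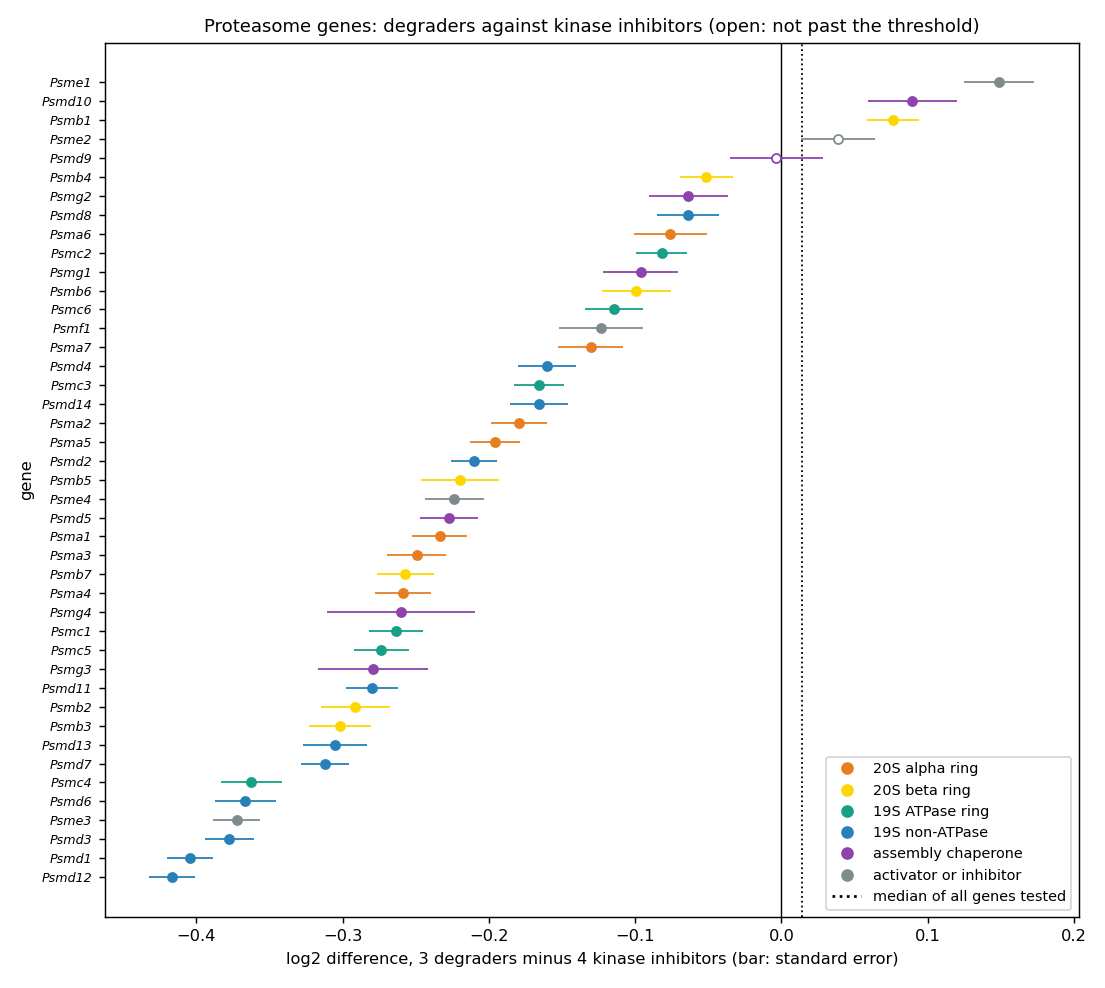
Log2 difference of the mean of the 3 degraders minus the mean of the 4 kinase inhibitors for each of the 43 members tested, with its standard error (bars), coloured by role; filled points passed an adjusted p of 0.05. The points run from -0.42 for Psmd12 to 0.15 for Psme1, and 39 lie left of the dotted line, the median of all genes tested (0.014).

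By role, the non-ATPase subunits of the 19S cap were lower by most: all 11 were called lower, with a median of -0.31 and a range of -0.42 to -0.064. All 6 ATPases were called lower (median -0.21), as were all 7 alpha subunits tested (median -0.20). Among the 7 beta subunits tested 6 were lower and 1 higher (median -0.22). The 7 chaperones were more mixed, with 5 lower and 1 higher (median -0.096), and of the 5 activators and inhibitors 3 were lower and 1 was higher (median -0.12). Over all genes tested, 32.6% were lower and 34.0% were higher in this comparison. The medians by role describe the lists, and their differences were not tested. The 9 calls lost under library totals were Psma6, Psmb4, Psmb6, Psmc2, Psmc6, Psmd8, Psmf1, Psmg1 and Psmg2.

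The promoters of 4 of these genes are shown because their patterns over the drugs differed: Psmd12, with the lowest class difference, Psmd6, with the lowest value for a single drug, Psmc6, which PROTAC FAK degrader 1 left near DMSO, and the catalytic Psmb5. Each sequence holds the 250 bases before the start site of the RefSeq gene (build GRCm38.p6), read 5′ to 3′ on the strand of the gene, with matches to TGACNNNGC on either strand in capitals. The windows are chr11:107479278-107479527 on the plus strand for Psmd12, chr14:45329574-45329823 on the plus strand for Psmc6, chr14:54617996-54618245 on the minus strand for Psmb5 and chr14:14120946-14121195 on the minus strand for Psmd6. TGACNNNGC is the core of the antioxidant response element, to which dimers that contain the transcription factor NFE2L1 or NFE2L2 bind.
Psmd12: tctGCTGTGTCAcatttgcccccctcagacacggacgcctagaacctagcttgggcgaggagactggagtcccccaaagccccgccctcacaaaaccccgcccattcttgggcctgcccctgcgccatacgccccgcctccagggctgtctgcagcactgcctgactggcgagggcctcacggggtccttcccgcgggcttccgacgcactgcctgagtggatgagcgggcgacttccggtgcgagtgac
Psmc6: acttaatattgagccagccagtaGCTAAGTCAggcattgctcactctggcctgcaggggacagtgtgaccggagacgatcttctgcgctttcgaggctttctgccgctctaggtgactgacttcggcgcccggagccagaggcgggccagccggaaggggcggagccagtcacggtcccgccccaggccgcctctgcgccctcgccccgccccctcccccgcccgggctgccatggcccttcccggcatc
Psmb5: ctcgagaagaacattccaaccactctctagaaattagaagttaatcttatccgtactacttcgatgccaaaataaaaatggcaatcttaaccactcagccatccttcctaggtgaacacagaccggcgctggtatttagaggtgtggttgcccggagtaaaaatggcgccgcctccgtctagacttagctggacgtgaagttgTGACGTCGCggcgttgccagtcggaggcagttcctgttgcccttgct
Psmd6: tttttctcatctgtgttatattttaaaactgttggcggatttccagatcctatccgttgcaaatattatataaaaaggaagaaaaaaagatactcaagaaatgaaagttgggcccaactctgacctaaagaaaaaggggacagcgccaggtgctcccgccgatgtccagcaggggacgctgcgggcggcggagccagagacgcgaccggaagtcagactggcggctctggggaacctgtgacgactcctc

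The match lay 247 bases before the start in Psmd12 and 227 bases before it in Psmc6, both on the opposite strand, and 47 bases before it in Psmb5 on the strand of the gene. These letters were not in the Psmd6 window. RefSeq windows of 300 bases (250 before and 50 after the start) were found for 37 of the 45 members, 40 windows in all, and 6 of the 40 (15.0%) held the core, those of Psmb5, Psmb6, Psmc6, Psmd9, Psmd12 and Psme4, beside 12.39% of all 32851 windows of that length. CCAAT, the letters bound by NF-Y, was in 13 of the 40 windows (32.5%) and in 37.41% of all windows, and the 2 motifs do not overlap in their letters. A match describes the letters of a window and is not evidence of binding.

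Among the non-ATPase subunits, Psmd12 was at 210.5, 201 and 204 CPM with DMSO, at 187, 185 and 190.1 with defactinib, 190.1, 191 and 191 with VS-4718, 190.4, 191 and 193 with GSK2256098 and 203, 202 and 207 with IN10018. Psmd12 had levels of 126, 125 and 124 CPM with PROTAC FAK degrader 1, of 151, 152 and 157 CPM with GSK215 and of 158, 161 and 155 CPM with BSJ-04-0146. Every degrader library was below every other library for this lid subunit, the 3 PROTAC FAK degrader 1 libraries lowest of all, and the class difference was -0.42 ± 0.016 (adjusted p = 3.3e-24). Psmd1, the large scaffold subunit that with Psmd2 binds ubiquitin-carrying partners, followed the same order. Psmd1 was at 389, 377 and 392 CPM with DMSO, at 369, 366 and 352 with defactinib, 359, 347 and 369 with VS-4718, 367, 371 and 375 with GSK2256098 and 365, 364 and 361 with IN10018. Psmd1 reached 235, 236 and 229 CPM with PROTAC FAK degrader 1, 296, 291 and 295 CPM with GSK215 and 310.0, 302 and 297 CPM with BSJ-04-0146. Its class difference was -0.40 ± 0.016 (adjusted p = 1.3e-23), and PROTAC FAK degrader 1 lay -0.72 ± 0.029 from DMSO (adjusted p = 3.1e-23). Psmd3, another lid subunit, was lower with all 3 degraders, from -0.47 with PROTAC FAK degrader 1 to -0.32 with BSJ-04-0146. Psmd3 was at 359.7, 356 and 363 CPM with DMSO, at 319.9, 342 and 338 with defactinib, 373, 361 and 353 with VS-4718, 354, 363 and 366 with GSK2256098 and 353, 347 and 371 with IN10018. Psmd3 stood at 265, 258 and 255 CPM with PROTAC FAK degrader 1, at 266, 274 and 267 with GSK215 and at 285, 291 and 288 with BSJ-04-0146. The class difference of Psmd3 was -0.38 ± 0.017 (adjusted p = 7.3e-22), and again no degrader library reached a kinase inhibitor library.

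Psmd6 and Psmd13, structural subunits of the lid, carried the largest changes of any member with a single drug. Psmd6 was at 127, 124 and 123 CPM with DMSO, at 112, 108 and 109 with defactinib, 109, 112 and 116 with VS-4718, 116, 123 and 119 with GSK2256098 and 126, 119 and 124 with IN10018. Psmd6 had levels of 69.8, 70.1 and 67.8 CPM with PROTAC FAK degrader 1, of 102, 99.2 and 98.0 CPM with GSK215 and of 106, 111 and 98.8 CPM with BSJ-04-0146. With PROTAC FAK degrader 1 the log2 difference from DMSO was -0.85 ± 0.039 (adjusted p = 1.0e-21) and the 3 libraries stood apart from all others, whereas BSJ-04-0146 libraries overlapped those of defactinib and VS-4718. Psmd13 was at 154, 147 and 148 CPM with DMSO, at 145, 138 and 138 with defactinib, 132, 126 and 140.3 with VS-4718, 144, 137 and 136 with GSK2256098 and 146, 142 and 154 with IN10018. Psmd13 reached 85.6, 88.4 and 83.3 CPM with PROTAC FAK degrader 1, 130.1, 127 and 125 CPM with GSK215 and 135, 137 and 125 CPM with BSJ-04-0146. Psmd13 differed from DMSO by -0.80 ± 0.041 with PROTAC FAK degrader 1 (adjusted p = 3.2e-20) and by -0.18 ± 0.039 with BSJ-04-0146 (adjusted p = 2.0e-04), the latter lost under library totals (adjusted p = 0.133). Against the kinase inhibitors at the same dose PROTAC FAK degrader 1 gave -0.74 ± 0.032 for Psmd6 and -0.70 ± 0.034 for Psmd13 (adjusted p = 1.2e-22 and adjusted p = 3.4e-21). Psmd13 shares 342 bases of exon with Sirt3 on the opposite strand, which had at most 443 counts in a library, and the strand setting of the counting is not stated.

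Psmd4, Psmd14 and Psmd8 of the cap were lowest with GSK215 among the degraders. Psmd4 was at 209, 205 and 209 CPM with DMSO, at 180.2, 198 and 180.3 with defactinib, 189, 188 and 187 with VS-4718, 201, 195 and 201 with GSK2256098 and 210.3, 196 and 208 with IN10018. Psmd4 stood at 203, 194 and 181 CPM with PROTAC FAK degrader 1, at 154, 159.6 and 154 with GSK215 and at 177, 178 and 170.3 with BSJ-04-0146. Psmd4, a ubiquitin receptor of the cap, was lowest with GSK215 (-0.41 ± 0.037, adjusted p = 1.5e-12) and with PROTAC FAK degrader 1 lay -0.013 ± 0.029 from the kinase inhibitors (adjusted p = 0.704, 95% interval -0.071 to 0.045). Psmd14 was at 158, 157 and 159 CPM with DMSO, at 149, 148 and 141 with defactinib, 129, 133 and 139 with VS-4718, 147, 141 and 144 with GSK2256098 and 155, 155 and 161 with IN10018. Psmd14 had levels of 151, 149 and 141 CPM with PROTAC FAK degrader 1, of 118, 118 and 115 CPM with GSK215 and of 129, 129.8 and 117 CPM with BSJ-04-0146. Psmd14, the metalloprotease that cuts ubiquitin chains from the substrate, was -0.43 ± 0.037 from DMSO with GSK215 (adjusted p = 4.8e-13) and -0.10 ± 0.036 with PROTAC FAK degrader 1 (adjusted p = 0.013). The PROTAC FAK degrader 1 call of Psmd14 was lost without replicate 3 of that drug (adjusted p = 0.123) and under library totals (adjusted p = 0.641), and on the latter scale it was higher than with the kinase inhibitors (0.085, adjusted p = 0.0060). Its class difference was -0.17 ± 0.020 (adjusted p = 1.8e-09), with PROTAC FAK degrader 1 inside the range of the kinase inhibitor libraries. Psmd8 was at 182, 171 and 181 CPM with DMSO, at 167, 176 and 169 with defactinib, 192, 191 and 204 with VS-4718, 194, 189 and 183 with GSK2256098 and 201, 197 and 205 with IN10018. Psmd8 reached 216, 205 and 189 CPM with PROTAC FAK degrader 1, 166, 164 and 166 CPM with GSK215 and 174, 183 and 168 CPM with BSJ-04-0146. Psmd8, the last subunit to join the lid, was higher than DMSO with PROTAC FAK degrader 1 (0.19 ± 0.038, adjusted p = 2.5e-05), IN10018 (0.18 ± 0.038, adjusted p = 0.0011) and VS-4718 (0.14 ± 0.038, adjusted p = 0.0030). The VS-4718 call was lost without DMSO replicate 2 (adjusted p = 0.058) or without VS-4718 replicate 3 (adjusted p = 0.056). Its class difference of -0.064 ± 0.021 (adjusted p = 0.0074) and its decrease with GSK215 changed sign when libraries were scaled by their totals. The class call of Psmd8 was lost without PROTAC FAK degrader 1 replicate 3 (adjusted p = 0.055), and the GSK215 call in 3 of 6 fits that left out 1 library, those without DMSO replicate 1 or 3 or GSK215 replicate 2 (adjusted p = 0.063 to 0.085). The remaining non-ATPase subunits Psmd2, Psmd7 and Psmd11 were lower with all 3 degraders.

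Psmc6 was at 180.0, 178 and 169 CPM with DMSO, at 162, 156 and 144 with defactinib, 138, 146 and 146 with VS-4718, 156, 154 and 153 with GSK2256098 and 174, 169 and 169.8 with IN10018. Psmc6 stood at 174, 181 and 171 CPM with PROTAC FAK degrader 1, at 126, 125 and 125 with GSK215 and at 138, 136 and 131 with BSJ-04-0146. For this ATPase the degraders split: PROTAC FAK degrader 1 lay -0.0011 ± 0.036 from DMSO (adjusted p = 0.979, 95% interval -0.073 to 0.071), whereas GSK215 (-0.49 ± 0.037, adjusted p = 1.7e-14) and BSJ-04-0146 (-0.38 ± 0.037, adjusted p = 1.5e-11) were lower, the highest of their 6 libraries level with the lowest kinase inhibitor library, a VS-4718 one. Under library totals Psmc6 was higher than DMSO with PROTAC FAK degrader 1 (0.081, adjusted p = 0.044). Psmc6 was also the lowest ATPase with VS-4718 (-0.29 ± 0.035, adjusted p = 1.2e-08) and with GSK2256098 (-0.19 ± 0.036, adjusted p = 3.0e-04). Psmc4 was at 139, 136 and 133 CPM with DMSO, at 120.1, 129 and 128 with defactinib, 142, 138 and 136 with VS-4718, 136, 138 and 137 with GSK2256098 and 137, 129.9 and 141 with IN10018. Psmc4 had levels of 94.9, 91.7 and 86.1 CPM with PROTAC FAK degrader 1, of 102, 103 and 106 CPM with GSK215 and of 117, 125 and 119 CPM with BSJ-04-0146. Psmc4 was instead lowest with PROTAC FAK degrader 1 (-0.58 ± 0.038, adjusted p = 1.3e-16), and had the lowest class difference of the ring (-0.36 ± 0.021, adjusted p = 1.9e-18). Psmc3 was at 235, 236 and 236 CPM with DMSO, at 200.1, 210.3 and 205 with defactinib, 231, 231 and 219 with VS-4718, 233, 225 and 226 with GSK2256098 and 231, 229 and 236 with IN10018. Psmc3 reached 194, 189 and 190.1 CPM with PROTAC FAK degrader 1, 191, 189 and 200.1 CPM with GSK215 and 215, 219 and 203 CPM with BSJ-04-0146. Psmc3 had its lowest kinase inhibitor value with defactinib (-0.20 ± 0.031, adjusted p = 7.0e-06), where its libraries overlapped those of the degraders. Psmc3 shares 215 bases of exon with Slc39a13 on the opposite strand, with up to 2789 counts in a library. Of the others, Psmc1 and Psmc5 were lower with all 3 degraders and in the class comparison, the call of Psmc5 with BSJ-04-0146 being lost under library totals (adjusted p = 0.551). Psmc2 was too, but its class difference and its change with PROTAC FAK degrader 1 changed sign under library totals (0.0032, adjusted p = 0.876, and 0.0072, adjusted p = 0.844). The PROTAC FAK degrader 1 call of Psmc2 was also lost in 4 of 6 fits that left out 1 library (adjusted p = 0.072 to 0.227).

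**Figure D3:**
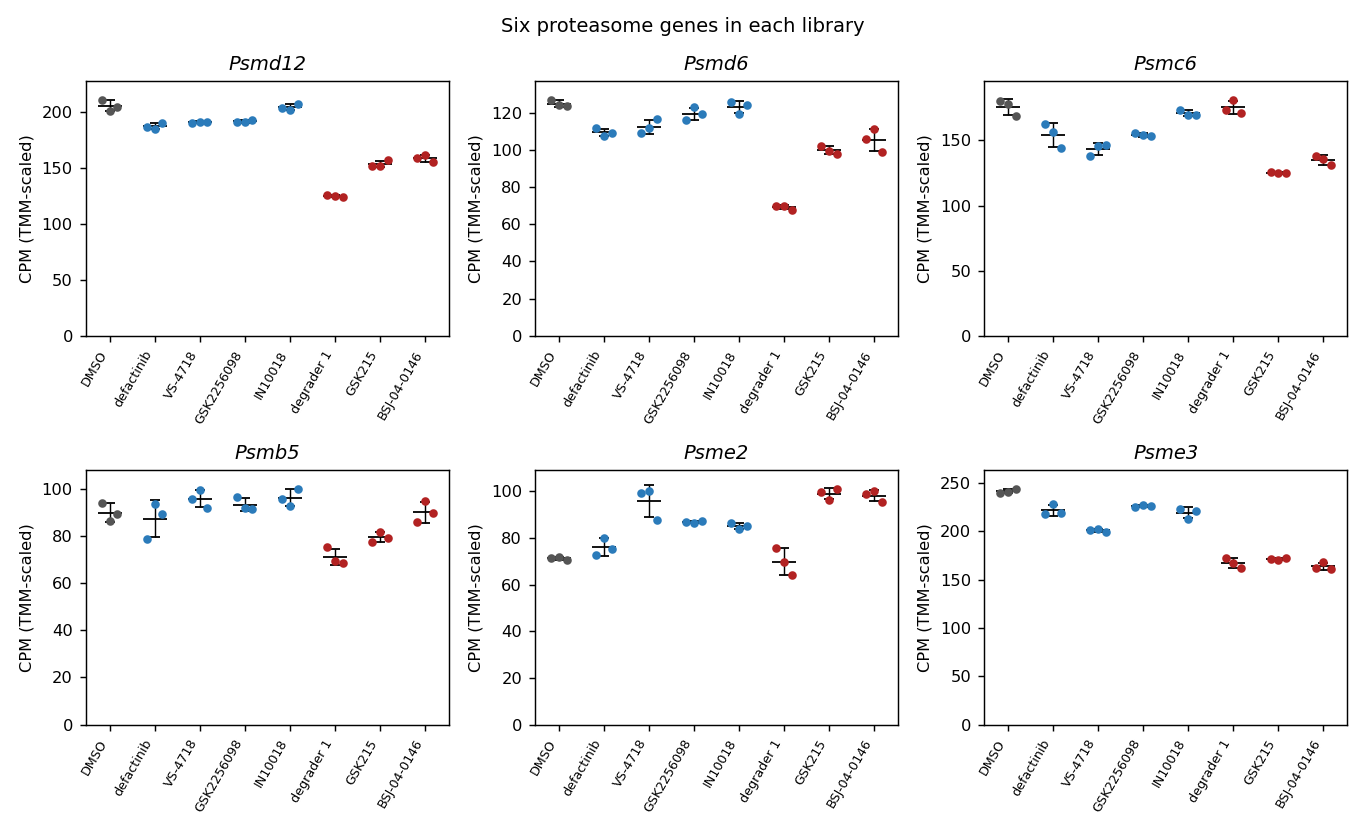
Levels (CPM, TMM-scaled) of Psmd12, Psmd6, Psmc6, Psmb5, Psme2 and Psme3 in each library, by drug; points are libraries (grey DMSO, blue kinase inhibitors, red degraders), the long bar is the mean and the error bar the SD, and degrader 1 stands for PROTAC FAK degrader 1. Psmd12 and Psme3 are low with all 3 degraders, Psmd6 is lowest and Psmc6 near DMSO with PROTAC FAK degrader 1, and Psme2 is raised with GSK215 and BSJ-04-0146.

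Of the catalytic beta subunits, Psmb5 was at 94.0, 86.1 and 89.3 CPM with DMSO, at 78.5, 93.6 and 89.4 with defactinib, 95.8, 99.3 and 91.9 with VS-4718, 96.5, 91.8 and 91.3 with GSK2256098 and 95.8, 92.7 and 99.97 with IN10018. Psmb5 stood at 75.1, 69.3 and 68.6 CPM with PROTAC FAK degrader 1, at 77.5, 81.7 and 79.2 with GSK215 and at 85.7, 94.5 and 89.7 with BSJ-04-0146. Psmb5 carries the chymotrypsin-like activity that clinical proteasome inhibitors block. It was lower with PROTAC FAK degrader 1 (-0.34 ± 0.050, adjusted p = 1.6e-07) and GSK215 (-0.17 ± 0.050, adjusted p = 0.0029), and BSJ-04-0146 lay 0.0048 ± 0.049 from DMSO (adjusted p = 0.944). Under library totals the GSK215 call of Psmb5 was lost (adjusted p = 0.368) and it was higher with BSJ-04-0146 (0.11, adjusted p = 0.040) and VS-4718 (0.13, adjusted p = 0.020). A processed pseudogene with 98.9% identity over 796 bases, Gm3375, had up to 740 counts where Psmb5 had at least 1180, so the split of reads between them is uncertain. Psmb6 was at 196, 196 and 192 CPM with DMSO, at 168, 192 and 178 with defactinib, 196, 206 and 188 with VS-4718, 192, 189 and 188 with GSK2256098 and 209, 196 and 211 with IN10018. Psmb6 had levels of 195, 189 and 174 CPM with PROTAC FAK degrader 1, of 164, 169 and 177 CPM with GSK215 and of 181, 194 and 174 CPM with BSJ-04-0146. Psmb6, the caspase-like site, passed the threshold against DMSO with GSK215 (-0.19 ± 0.044, adjusted p = 2.4e-04) and defactinib (-0.12 ± 0.043, adjusted p = 0.042), both lost under library totals (adjusted p = 0.142 and adjusted p = 0.071). The defactinib call of Psmb6 was also lost in 5 of 6 fits that left out 1 library (adjusted p = 0.053 to 0.272), all but that without defactinib replicate 2. Its class difference of -0.099 ± 0.024 (adjusted p = 3.3e-04) lost its call under library totals (adjusted p = 0.589). Psmb7 was at 244, 237 and 245 CPM with DMSO, at 215, 226 and 214 with defactinib, 226, 224 and 223 with VS-4718, 223, 221 and 216 with GSK2256098 and 235, 233 and 249 with IN10018. Psmb7 reached 182, 190.4 and 182 CPM with PROTAC FAK degrader 1, 168, 178 and 178 CPM with GSK215 and 217, 212 and 193 CPM with BSJ-04-0146. Psmb7, the trypsin-like site, was lower with every degrader and had a class difference of -0.26 ± 0.019 (adjusted p = 8.0e-15). It shares 405 bases of exon with Nek6 on the opposite strand, with up to 2291 counts in a library.

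In the class comparison the structural beta subunits Psmb3 and Psmb1 had the lowest and the highest value of the ring. Psmb3 was at 184, 179 and 186 CPM with DMSO, at 161, 163 and 158 with defactinib, 156, 151 and 154 with VS-4718, 161, 157 and 165 with GSK2256098 and 179, 171 and 182 with IN10018. Psmb3 stood at 140.3, 137 and 126 CPM with PROTAC FAK degrader 1, at 128, 122 and 126 with GSK215 and at 138, 146 and 128 with BSJ-04-0146. All 9 degrader libraries of Psmb3 were below all 12 kinase inhibitor libraries (-0.30 ± 0.021, adjusted p = 9.0e-16), and it was the lowest member with GSK215 (-0.55 ± 0.039, adjusted p = 3.7e-15). Psmb1 was at 226, 224 and 228 CPM with DMSO, at 206, 209.9 and 203 with defactinib, 223, 217 and 228 with VS-4718, 219, 213 and 209.8 with GSK2256098 and 245, 228 and 240.3 with IN10018. Psmb1 had levels of 266, 256 and 253 CPM with PROTAC FAK degrader 1, of 206, 208 and 212 CPM with GSK215 and of 242, 233 and 219 CPM with BSJ-04-0146. Psmb1 was higher than DMSO with PROTAC FAK degrader 1 (0.19 ± 0.033, adjusted p = 2.3e-06) and lower with GSK215 (-0.12 ± 0.033, adjusted p = 0.0035), the latter changing sign under library totals. The class difference of Psmb1 (0.076 ± 0.018, adjusted p = 2.9e-04) rested on PROTAC FAK degrader 1 and was -0.0017 without it (adjusted p = 0.952). Psmb2 was lower with all 3 degraders. Psmb4 was lower with GSK215, and its class difference (-0.051, adjusted p = 0.012) changed sign under library totals.

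The alpha subunits, which form the gate of the core, had no member called higher in any of the 11 comparisons with TMM scaling. Under library totals Psma6 was higher with VS-4718 (0.15, adjusted p = 0.0053) and Psma1 with IN10018 (0.099, adjusted p = 0.036). In the class comparison the 7 tested ran from -0.26 for Psma4 to -0.076 for Psma6, the latter changing sign under library totals. With PROTAC FAK degrader 1 they ran from -0.50 for Psma3 to -0.062 for Psma6 and 6 were called lower (32.7% of all genes), with GSK215 from -0.36 for Psma4 to -0.16 for Psma6 and all 7 were lower (27.2%), and with BSJ-04-0146 from -0.25 for Psma4 to -0.013 for Psma6 and 6 were lower (26.9%). Under library totals Psma6 lost its GSK215 call (adjusted p = 0.492), and Psma1 and Psma7 lost their BSJ-04-0146 calls (adjusted p = 0.106 and adjusted p = 0.217). With the kinase inhibitors 6 were lower with defactinib, 5 with VS-4718, 2 with GSK2256098 and 0 with IN10018, beside 11.0%, 18.9%, 6.09% and 6.85% of all genes. Of 6 fits that left out 1 library, the defactinib call was lost in 5 for Psma3, in 2 for Psma4 and in 1 for Psma1. The Psma5 call was lost in 3 of 6 such fits with VS-4718 and in 3 of 6 with GSK2256098. Under library totals Psma3 lost its defactinib call and Psma5 its VS-4718 call. Psma6 was the member of the ring with the smallest decrease in each of the 3 degraders.

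Among the chaperones of the 19S base, Psmd5 was at 91.6, 93.3 and 91.6 CPM with DMSO, at 76.2, 80.3 and 77.9 with defactinib, 98.0, 97.7 and 99.7 with VS-4718, 85.9, 84.7 and 83.4 with GSK2256098 and 93.8, 85.6 and 90.2 with IN10018. Psmd5 reached 65.9, 66.1 and 66.2 CPM with PROTAC FAK degrader 1, 75.1, 73.7 and 74.9 CPM with GSK215 and 87.3, 84.1 and 82.8 CPM with BSJ-04-0146. Psmd5 was the member most lowered by defactinib (-0.24 ± 0.035, adjusted p = 2.4e-06), and it was lower still with PROTAC FAK degrader 1 (-0.48 ± 0.036, adjusted p = 7.2e-15). With VS-4718 it differed by 0.095 ± 0.034 (adjusted p = 0.023), a call lost in 5 of 6 fits that left out 1 library (adjusted p = 0.057 to 0.126), all but that without VS-4718 replicate 2. Psmd10 was at 31.1, 34.0 and 33.0 CPM with DMSO, at 29.4, 30.4 and 32.9 with defactinib, 35.6, 37.9 and 34.7 with VS-4718, 33.8, 34.8 and 32.9 with GSK2256098 and 38.9, 37.4 and 39.2 with IN10018. Psmd10 stood at 40.2, 39.96 and 37.1 CPM with PROTAC FAK degrader 1, at 33.9, 33.8 and 35.0 with GSK215 and at 37.0, 40.9 and 34.8 with BSJ-04-0146. Psmd10, also known as gankyrin, was called lower with none of the 7 drugs and rose with PROTAC FAK degrader 1 (0.26 ± 0.055, adjusted p = 7.7e-05), IN10018 (0.23 ± 0.054, adjusted p = 0.0026), BSJ-04-0146 (0.20 ± 0.056, adjusted p = 0.0025) and VS-4718 (0.14 ± 0.054, adjusted p = 0.038). The VS-4718 call of Psmd10 was lost without DMSO replicate 1 or 3 or VS-4718 replicate 1 or 2 (adjusted p = 0.083 to 0.246) and with DESeq2 (adjusted p = 0.072), and the BSJ-04-0146 call without BSJ-04-0146 replicate 2 (adjusted p = 0.076). Its class difference of 0.090 ± 0.030 (adjusted p = 0.0088) was 0.048 without PROTAC FAK degrader 1 (adjusted p = 0.233). The third of these chaperones, Psmd9, did not pass the threshold in the class comparison (-0.0034 ± 0.032, adjusted p = 0.933), in which the degraders differed. Psmd9 was at 40.8, 40.04 and 40.6 CPM with DMSO, at 33.7, 36.3 and 39.0 with defactinib, 41.6, 46.3 and 39.6 with VS-4718, 38.1, 40.6 and 38.9 with GSK2256098 and 40.9, 41.1 and 44.4 with IN10018. Psmd9 was at 47.1, 43.0 and 43.8 CPM with PROTAC FAK degrader 1, at 35.3, 37.6 and 34.6 with GSK215 and at 39.2, 42.1 and 37.3 with BSJ-04-0146. It was higher than DMSO with PROTAC FAK degrader 1 (0.14 ± 0.056, adjusted p = 0.022), where the libraries did not overlap those of DMSO, and lower with GSK215 (-0.18 ± 0.059, adjusted p = 0.011) and defactinib (-0.15 ± 0.056, adjusted p = 0.045). Against the other 2 degraders Psmd9 was 0.25 ± 0.051 with PROTAC FAK degrader 1 (adjusted p = 4.1e-05). Under library totals its GSK215 and defactinib calls were lost (adjusted p = 0.448 and adjusted p = 0.074) and its class difference passed (0.082, adjusted p = 0.019). The call of Psmd9 with PROTAC FAK degrader 1 was lost without DMSO replicate 2 or without replicate 1 of the drug (adjusted p = 0.053 and adjusted p = 0.133), that with GSK215 without GSK215 replicate 3 (adjusted p = 0.062), and that with defactinib in 5 of 6 fits that left out 1 library, all but that without defactinib replicate 3.

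The chaperones Psmg1 to Psmg4 bring alpha subunits together in pairs of partners. Psmg1 was at 42.6, 43.1 and 42.3 CPM with DMSO, at 39.6, 41.6 and 43.1 with defactinib, 42.8, 40.9 and 39.0 with VS-4718, 41.7, 40.7 and 40.04 with GSK2256098 and 42.8, 42.0 and 43.8 with IN10018. Psmg1 had levels of 41.3, 44.0 and 41.5 CPM with PROTAC FAK degrader 1, of 40.8, 37.1 and 38.9 CPM with GSK215 and of 34.9, 35.6 and 36.5 CPM with BSJ-04-0146. Psmg1 was lowest with BSJ-04-0146 (-0.26 ± 0.048, adjusted p = 1.5e-05), whereas its partner was lowest with PROTAC FAK degrader 1. Psmg2 was at 39.9, 40.5 and 38.6 CPM with DMSO, at 37.9, 37.2 and 36.3 with defactinib, 36.1, 39.5 and 37.9 with VS-4718, 39.1, 38.1 and 36.3 with GSK2256098 and 39.2, 37.7 and 42.0 with IN10018. Psmg2 reached 32.9, 36.1 and 33.3 CPM with PROTAC FAK degrader 1, 38.0, 36.3 and 36.0 CPM with GSK215 and 39.2, 38.4 and 38.5 CPM with BSJ-04-0146. For Psmg2 the decrease with PROTAC FAK degrader 1 was -0.22 ± 0.050 (adjusted p = 1.8e-04). The class calls of this pair were small, at -0.096 ± 0.026 for Psmg1 (adjusted p = 0.0013, lost under library totals with an adjusted p = 0.720) and -0.064 ± 0.027 for Psmg2 (adjusted p = 0.039). The Psmg2 call was lost in 15 of 21 fits that left out 1 library, with DESeq2 (adjusted p = 0.056) and with thinned libraries (adjusted p = 0.089), and its sign turned under library totals. Psmg3 was at 36.1, 35.3 and 34.9 CPM with DMSO, at 35.0, 32.1 and 34.2 with defactinib, 31.3, 31.2 and 29.3 with VS-4718, 32.0, 31.0 and 32.1 with GSK2256098 and 38.6, 34.2 and 37.8 with IN10018. Psmg3 stood at 32.3, 25.6 and 25.3 CPM with PROTAC FAK degrader 1, at 25.8, 27.2 and 27.6 with GSK215 and at 30.2, 26.2 and 25.1 with BSJ-04-0146. For Psmg3 every degrader mean was below every kinase inhibitor mean, as it was for its partner. Psmg4 was at 17.7, 17.3 and 18.3 CPM with DMSO, at 17.5, 19.1 and 17.9 with defactinib, 18.4, 16.3 and 15.4 with VS-4718, 18.5, 17.9 and 16.5 with GSK2256098 and 18.4, 18.6 and 18.7 with IN10018. Psmg4 stood at 15.4, 12.7 and 11.9 CPM with PROTAC FAK degrader 1, 13.3, 14.7 and 15.9 CPM with GSK215 and 19.1, 17.0 and 13.3 CPM with BSJ-04-0146. This second pair was lower in the class comparison, by -0.28 ± 0.038 for Psmg3 (adjusted p = 2.2e-08) and -0.26 ± 0.051 for Psmg4 (adjusted p = 2.1e-05), the libraries of GSK215 and BSJ-04-0146 overlapping for both.

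The activators had members called in both directions, from -0.37 for Psme3 to 0.15 for Psme1 in the class comparison. Psme1 and Psme2 form the PA28 ring that caps the core without ATP and is induced by interferon gamma. Psme2 was at 71.5, 71.9 and 70.6 CPM with DMSO, at 72.6, 80.1 and 75.4 with defactinib, 99.4, 100.3 and 87.9 with VS-4718, 86.7, 86.3 and 87.1 with GSK2256098 and 86.6, 83.8 and 85.4 with IN10018. Psme2 had levels of 75.8, 69.6 and 64.3 CPM with PROTAC FAK degrader 1, of 99.5, 96.3 and 101 CPM with GSK215 and of 99.0, 100.02 and 95.6 CPM with BSJ-04-0146. Psme2 was the member raised most by GSK215 (0.47 ± 0.047, adjusted p = 2.8e-11), BSJ-04-0146 (0.46 ± 0.047, adjusted p = 5.6e-11), VS-4718 (0.43 ± 0.045, adjusted p = 6.4e-10), GSK2256098 (0.28 ± 0.046, adjusted p = 3.4e-05) and IN10018 (0.26 ± 0.047, adjusted p = 1.6e-04). With PROTAC FAK degrader 1 (-0.027 ± 0.048, adjusted p = 0.644) and defactinib (0.091 ± 0.047, adjusted p = 0.171) it did not pass the threshold. The class difference of Psme2 did not pass (0.039 ± 0.025, 95% interval -0.012 to 0.090, adjusted p = 0.175), but it did without PROTAC FAK degrader 1 (0.20, adjusted p = 6.1e-08), without the third library of that drug (0.062, adjusted p = 0.025) and under library totals (0.12, adjusted p = 1.8e-05). Its near copy Psme2b, with 99.4% identity over 794 bases, had up to 159 counts where Psme2 had at least 1224.

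Psme1 was at 84.5, 80.1 and 86.1 CPM with DMSO, at 81.3, 84.9 and 81.8 with defactinib, 83.1, 83.1 and 81.3 with VS-4718, 84.1, 83.9 and 85.9 with GSK2256098 and 92.9, 87.5 and 92.8 with IN10018. Psme1 reached 94.5, 86.3 and 82.2 CPM with PROTAC FAK degrader 1, 97.6, 96.9 and 95.2 CPM with GSK215 and 101, 105 and 91.3 CPM with BSJ-04-0146. Psme1 rose with BSJ-04-0146 (0.25 ± 0.044, adjusted p = 8.0e-06) and GSK215 (0.21 ± 0.044, adjusted p = 1.1e-04). It had the highest class difference of all members (0.15 ± 0.024, adjusted p = 8.9e-07), with libraries of PROTAC FAK degrader 1 overlapping those of the kinase inhibitors. Under library totals Psme1 was also called higher than DMSO with PROTAC FAK degrader 1 and IN10018, and higher with PROTAC FAK degrader 1 than with the kinase inhibitors. Psme3 was at 239, 241 and 244 CPM with DMSO, at 218, 228 and 219 with defactinib, 202, 202 and 199 with VS-4718, 225, 227 and 226 with GSK2256098 and 223, 213 and 221 with IN10018. Psme3 stood at 172, 167 and 162 CPM with PROTAC FAK degrader 1, at 171, 170.5 and 173 with GSK215 and at 162, 168 and 161 with BSJ-04-0146. Psme3, the nuclear relative of PA28 (PA28 gamma), went the other way and was the only member called lower with all 7 drugs. Its decrease was -0.56 ± 0.030 with BSJ-04-0146, -0.53 ± 0.030 with PROTAC FAK degrader 1 and -0.49 ± 0.030 with GSK215, and it ran from -0.27 with VS-4718 to -0.095 with GSK2256098 (adjusted p = 0.024) among the kinase inhibitors. The GSK2256098 call of Psme3 was lost in 5 of 6 fits that left out 1 library (adjusted p = 0.052 to 0.079), all but that without DMSO replicate 1. The class difference was -0.37 ± 0.016 (adjusted p = 3.5e-22), and the 9 degrader libraries did not overlap any other library. Psme4 was at 196, 203 and 192 CPM with DMSO, at 191, 179.8 and 185 with defactinib, 194, 201 and 208 with VS-4718, 179.5, 187 and 185 with GSK2256098 and 188, 191 and 189 with IN10018. Psme4 had levels of 140.3, 156 and 142 CPM with PROTAC FAK degrader 1, of 177, 167 and 165 CPM with GSK215 and of 181, 166 and 175 CPM with BSJ-04-0146. Psme4 (PA200), a large nuclear activator, was lower in the class comparison (-0.22 ± 0.020, adjusted p = 1.5e-12) and lowest with PROTAC FAK degrader 1. Psmf1 was at 38.2, 38.5 and 34.7 CPM with DMSO, at 35.5, 35.3 and 33.6 with defactinib, 41.4, 38.5 and 38.1 with VS-4718, 36.0, 38.5 and 37.4 with GSK2256098 and 38.4, 41.3 and 40.1 with IN10018. Psmf1 reached 36.5, 36.5 and 34.6 CPM with PROTAC FAK degrader 1, 35.1, 32.4 and 31.0 CPM with GSK215 and 35.9, 34.9 and 35.9 CPM with BSJ-04-0146. Psmf1 (PI31), which binds and can inhibit the core, passed against DMSO with GSK215 only (-0.18 ± 0.053, adjusted p = 0.0040), whereas under library totals it passed with VS-4718 only (0.12, adjusted p = 0.046) and GSK215 lost its call (adjusted p = 0.362). Its class difference of -0.12 ± 0.029 (adjusted p = 2.5e-04) lost its call under library totals (adjusted p = 0.236).

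**Figure D4:**
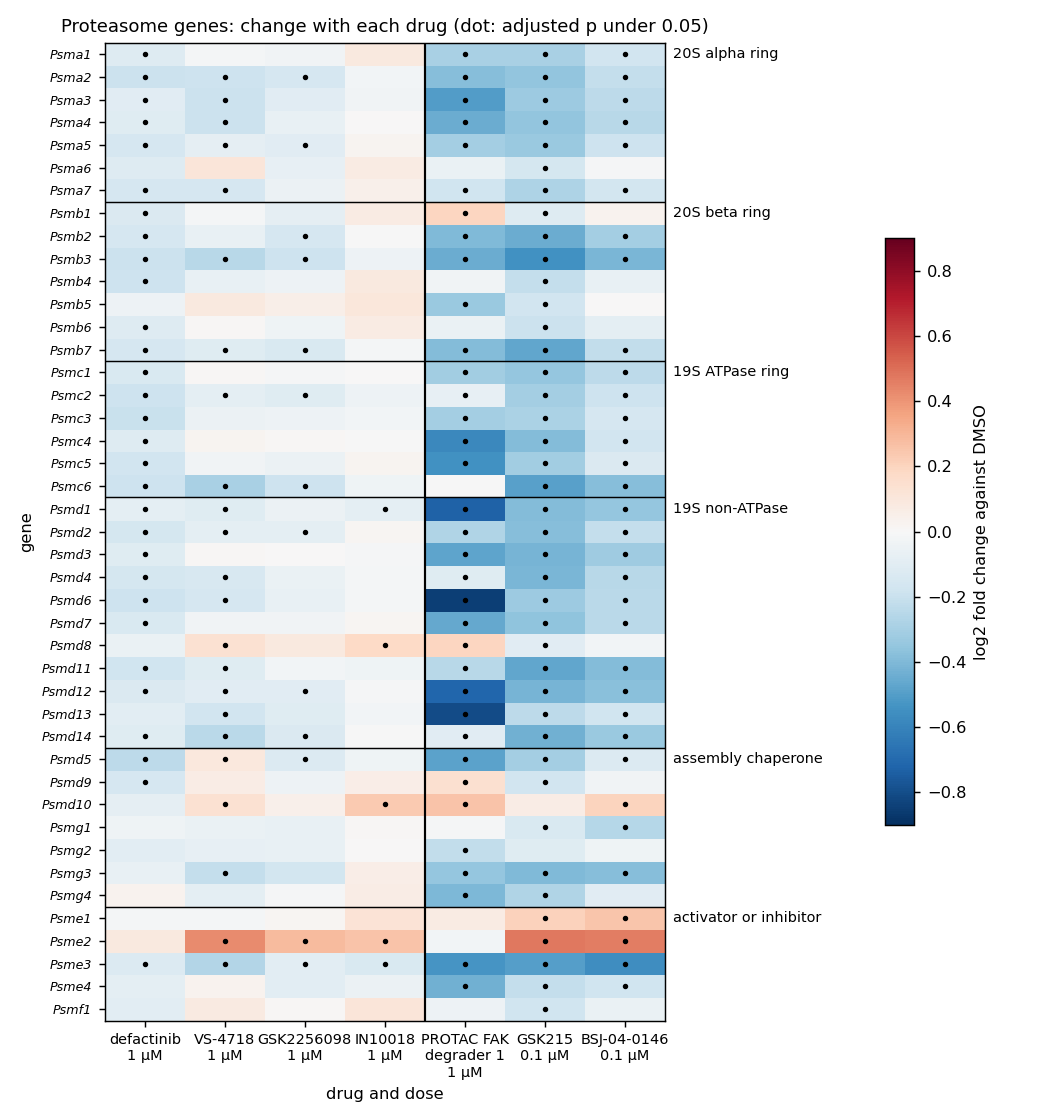
Log2 fold change against DMSO of each of the 43 members tested (rows, grouped by role) with each drug and dose (columns); blue is lower, red is higher, and a dot marks an adjusted p under 0.05. The degrader columns right of the black line are mostly blue, with 28 members lower in all 3 (13.0% of all genes tested are), and IN10018 has 5 dots.

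Against DMSO and with TMM scaling, the drugs ranked as follows in how many members they lowered. GSK215 lowered 39 of the 43 and raised 2 (27.2% and 27.4% of all genes tested), with a member median of -0.31. PROTAC FAK degrader 1 lowered 31 and raised 4 (32.7% and 34.1% of all genes), also with a median of -0.31. BSJ-04-0146 lowered 30 and raised 3 (26.9% and 27.7%), with a median of -0.19. Defactinib lowered 30 and raised 0 (11.0% and 11.4%), at a smaller median of -0.12. VS-4718 lowered 19 and raised 4 (18.9% and 20.4%), GSK2256098 lowered 12 and raised 1 (6.09% and 6.36%), and IN10018 lowered 2 and raised 3 (6.85% and 6.44%), with medians of -0.067, -0.063 and 0.0010. All-gene medians in these comparisons lay between -0.0044 and 0.021, and the 7 comparisons share the 3 DMSO libraries. Under library totals GSK215 lowered 30 members (17.8% of all genes) and PROTAC FAK degrader 1 lowered 28 (27.7%). On that scale defactinib lowered 26 (8.46%), more than the 22 with BSJ-04-0146 (18.5%). Lower with all 3 degraders were 28 members, beside 13.0% of all genes tested: 6 alpha subunits, 3 beta subunits, 5 ATPases, 10 non-ATPases, 2 chaperones (Psmd5 and Psmg3) and the activators Psme3 and Psme4. Under library totals 17 of the 28 were lower with all 3, beside 7.87% of all genes. With BSJ-04-0146 the calls of Psma1, Psma7, Psmc3, Psmc4, Psmc5, Psmd5, Psmd13 and Psme4 were lost on that scale. With PROTAC FAK degrader 1 those of Psmc2, Psmd4 and Psmd14 were lost, so Psmc1 was the only ATPase that remained. The Psmd4 call was also lost without PROTAC FAK degrader 1 replicate 3 (adjusted p = 0.130). Over the 11 comparisons 45 of 308 calls of members were lost on that scale, 9 of them with GSK215 and 8 with BSJ-04-0146, and 24 were gained. Psmd10, Psme1 and Psme2 were lowered by no drug. The fitted value was lowest of the 7 drugs with PROTAC FAK degrader 1 in 19 members (33.3% of all genes tested) and with GSK215 in 19 (13.4% of all genes tested). Under library totals these were 21 members (31.6%) and 10 members (8.28%), and 9 were lowest with defactinib (14.9%).

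With the kinase inhibitors, all at 1 μM, log2 differences of members from DMSO lay between -0.29 (Psmc6) and 0.43 (Psme2), both with VS-4718. With defactinib all 6 ATPases were lower, from -0.20 for Psmc3 to -0.11 for Psmc4. The Psmc4 call was lost in 3 of 6 fits that left out 1 library (adjusted p = 0.063 to 0.148). VS-4718 and GSK2256098 lowered Psmc6 most. Lower with defactinib, VS-4718 and GSK2256098 alike were 10 members, beside 3.14% of all genes tested, and 6 under library totals, beside 2.23%. Without DMSO replicate 2, the GSK2256098 calls of Psma5, Psmc2, Psmd2 and Psme3 among these 10 were lost. The Psmd2 call with GSK2256098 was lost in 6 of 6 fits that left out 1 library (adjusted p = 0.061 to 0.134). With IN10018 the called members were Psme3 (-0.14 ± 0.029, adjusted p = 8.0e-04) and Psmd1 (-0.086 ± 0.029, adjusted p = 0.042) below DMSO and Psme2, Psmd10 and Psmd8 above it. The Psmd1 call with IN10018 was lost in 5 of 6 fits that left out 1 library, with adjusted p values of 0.077 to 0.146, and under library totals (adjusted p = 0.060). Differences between single kinase inhibitors were not tested.

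The degraders differed among themselves in the order of the subunits. PROTAC FAK degrader 1 against the mean of GSK215 and BSJ-04-0146 had 19 members lower and 11 higher (35.1% and 34.6% of all genes). The member median was -0.045 beside -0.025 for all genes, and 23 of the 43 members lay below the all-gene median. Psmd13 (-0.60 ± 0.037, adjusted p = 1.3e-17), Psmd6 (-0.57 ± 0.035, adjusted p = 1.9e-17) and Psme2 (-0.49 ± 0.042, adjusted p = 1.9e-13) were the lowest, and Psmc6 (0.43 ± 0.032, adjusted p = 2.4e-15) and the deubiquitinase Psmd14 (0.28 ± 0.032, adjusted p = 3.9e-10) the highest. Among the non-ATPases, 6 were lower and 4 higher with PROTAC FAK degrader 1. Its dose was 10-fold above that of the other 2, so compound and dose cannot be told apart.

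At the equal dose of 0.1 μM, GSK215 was below BSJ-04-0146 in 23 members and above it in 0, beside 12.6% and 9.88% of all genes tested, with a median of -0.12 beside -0.0051. The largest differences were in Psmb7 (-0.24 ± 0.037, adjusted p = 3.6e-06) and Psmc4 (-0.22 ± 0.040, adjusted p = 7.0e-05). All 6 ATPases, 6 of 7 alpha subunits and 6 of 7 beta subunits were lower with GSK215, but 4 of 11 non-ATPases and 0 of the 5 activators and inhibitors passed. For Psmd12 the difference between the 2 drugs was -0.046 ± 0.030 with a 95% interval of -0.11 to 0.015 (adjusted p = 0.305). Under library totals Psmc6 and Psma7 lost their calls (adjusted p = 0.072 and adjusted p = 0.056) and Psme3 (0.081, adjusted p = 0.041) and Psmg1 (0.14, adjusted p = 0.043) were higher with GSK215. The count of 23 fell to 13 without BSJ-04-0146 replicate 2, where 8.66% of all genes were lower.

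Genes of the pathway outside the subunit family were read from a list of 29, of which 28 were in the table and all 28 were tested. In the class comparison 17 were lower and 6 were higher, beside 32.6% and 34.0% of all genes tested, with a median of -0.089 beside 0.014 for all genes. Nfe2l1 encodes the transcription factor that drives the subunit genes when proteasome capacity falls short. Nfe2l1 was at 263, 256 and 258 CPM with DMSO, at 284, 276 and 285 with defactinib, 244, 249 and 245 with VS-4718, 271, 276 and 275 with GSK2256098 and 257, 256 and 264 with IN10018. Nfe2l1 stood at 504, 496 and 483 CPM with PROTAC FAK degrader 1, at 259.9, 257 and 249.6 with GSK215 and at 219.6, 225 and 236 with BSJ-04-0146. Nfe2l1 differed by 0.93 ± 0.029 from DMSO with PROTAC FAK degrader 1 (adjusted p = 7.8e-27), where its 3 libraries did not overlap any other library, whereas it was -0.19 ± 0.030 with BSJ-04-0146 (adjusted p = 8.2e-07) and did not pass with GSK215 (-0.021 ± 0.030, adjusted p = 0.584). Its 95% interval with GSK215 was -0.081 to 0.040, and under library totals it was higher with GSK215 (0.10, adjusted p = 0.0036). Ngly1 was at 5.92, 7.11 and 6.35 CPM with DMSO, at 6.50, 5.73 and 6.26 with defactinib, 9.26, 9.21 and 9.84 with VS-4718, 7.01, 6.48 and 7.50 with GSK2256098 and 7.43, 6.72 and 7.44 with IN10018. Ngly1 had levels of 12.5, 12.7 and 11.7 CPM with PROTAC FAK degrader 1, of 9.46, 8.17 and 10.6 CPM with GSK215 and of 11.1, 9.65 and 9.28 CPM with BSJ-04-0146. Ngly1, the enzyme that removes sugars from the Nfe2l1 protein, had the highest class difference of the list (0.51 ± 0.052, adjusted p = 3.1e-11), with VS-4718 also above DMSO (0.54 ± 0.095, adjusted p = 1.2e-05).

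Apart from Pomp, the next genes were named because they had the largest changes of the list in each direction. Zfand5 was at 60.8, 60.5 and 63.0 CPM with DMSO, at 64.2, 61.7 and 59.1 with defactinib, 65.2, 57.1 and 65.2 with VS-4718, 64.4, 66.3 and 63.1 with GSK2256098 and 66.5, 66.0 and 60.3 with IN10018. Zfand5 reached 96.8, 98.5 and 99.7 CPM with PROTAC FAK degrader 1, 73.6, 72.4 and 73.8 CPM with GSK215 and 86.9, 81.5 and 73.3 CPM with BSJ-04-0146. Zfand5, a zinc finger protein that stimulates the 26S particle, was higher in every degrader than in every kinase inhibitor library (0.40 ± 0.027, adjusted p = 2.3e-16). Zfand2a was at 28.1, 25.4 and 24.3 CPM with DMSO, at 26.1, 24.9 and 25.5 with defactinib, 30.9, 27.99 and 31.1 with VS-4718, 25.9, 26.5 and 26.6 with GSK2256098 and 27.0, 28.7 and 28.7 with IN10018. Zfand2a stood at 43.5, 46.5 and 43.7 CPM with PROTAC FAK degrader 1, at 26.4, 26.8 and 26.8 with GSK215 and at 34.0, 36.4 and 37.0 with BSJ-04-0146. Zfand2a, a stress-induced partner of the cap, was higher with PROTAC FAK degrader 1 and BSJ-04-0146 and 0.043 ± 0.058 from DMSO with GSK215 (adjusted p = 0.554; 0.17, adjusted p = 0.015 under library totals), with a class difference of 0.35 ± 0.030 (adjusted p = 3.7e-13). Usp14 was at 132, 136 and 134 CPM with DMSO, at 133, 123 and 125 with defactinib, 118, 121 and 134 with VS-4718, 126, 129.9 and 125 with GSK2256098 and 127, 127 and 125 with IN10018. Usp14 had levels of 83.8, 89.4 and 85.1 CPM with PROTAC FAK degrader 1, of 104, 103 and 97.5 CPM with GSK215 and of 107, 103 and 101 CPM with BSJ-04-0146. Usp14, a deubiquitinase that rides on the cap, had the lowest class difference of the list (-0.38 ± 0.022, adjusted p = 2.2e-18). Adrm1 was at 154, 149 and 150.1 CPM with DMSO, at 132, 145 and 145 with defactinib, 178, 168 and 165 with VS-4718, 158, 163 and 158 with GSK2256098 and 151, 148 and 158 with IN10018. Adrm1 reached 107, 98.0 and 97.7 CPM with PROTAC FAK degrader 1, 122, 129.5 and 131 CPM with GSK215 and 137, 139.8 and 149 CPM with BSJ-04-0146. Adrm1, a ubiquitin receptor of the cap, was lowest with PROTAC FAK degrader 1 and had a class difference of -0.35 ± 0.022 (adjusted p = 5.0e-17). Nploc4 was at 179, 172 and 180.5 CPM with DMSO, at 158, 159 and 158 with defactinib, 167, 162 and 163 with VS-4718, 173, 173 and 174 with GSK2256098 and 182, 177 and 177 with IN10018. Nploc4 stood at 121, 122 and 123 CPM with PROTAC FAK degrader 1, at 138, 131 and 136 with GSK215 and at 140.5, 138 and 148 with BSJ-04-0146. Nploc4, a cofactor of the Vcp unfoldase that feeds substrates to the proteasome, was lower in every degrader library than in every kinase inhibitor library (-0.34 ± 0.017, adjusted p = 1.7e-20). Pomp was at 123, 119 and 115 CPM with DMSO, at 107, 115 and 112 with defactinib, 132, 134 and 122 with VS-4718, 122, 118 and 115 with GSK2256098 and 124, 125 and 123 with IN10018. Pomp had levels of 88.3, 87.7 and 85.1 CPM with PROTAC FAK degrader 1, of 105, 104 and 103 CPM with GSK215 and of 115, 117 and 117 CPM with BSJ-04-0146. Pomp, which guides the maturation of the core, followed the subunits with PROTAC FAK degrader 1 (-0.45 ± 0.037, adjusted p = 9.3e-14) and GSK215 (-0.19 ± 0.037, adjusted p = 2.3e-05), and BSJ-04-0146 lay -0.030 ± 0.037 from DMSO (adjusted p = 0.518). Under library totals the GSK215 call of Pomp was lost (adjusted p = 0.088).

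**Figure D5:**
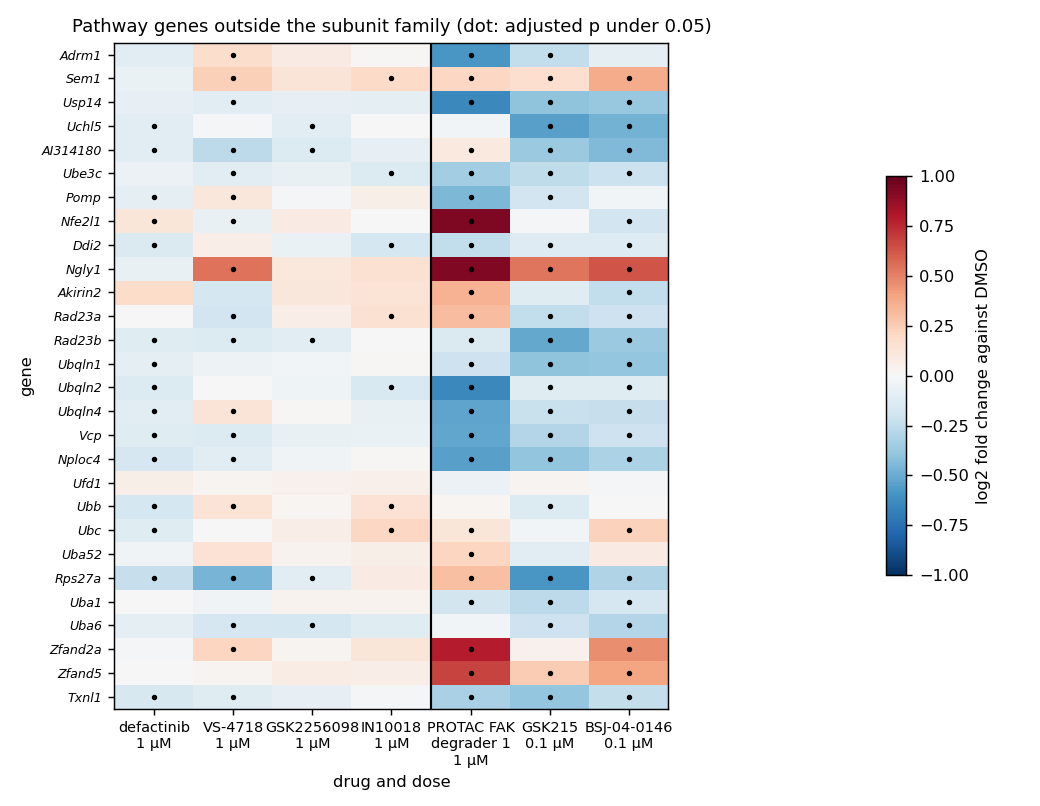
Log2 fold change against DMSO of the 28 pathway genes outside the subunit family (rows) with each drug and dose (columns); blue is lower, red is higher, and a dot marks an adjusted p under 0.05. Nfe2l1 is at 0.93 and Ngly1 at 0.92 with PROTAC FAK degrader 1, for which 11 genes are higher and 13 lower (34.1% and 32.7% of all genes are), and 19 genes are lower with GSK215 and 18 with BSJ-04-0146 (27.2% and 26.9% of all genes are).

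The immunoproteasome subunits, which replace the catalytic sites of the core in immune signalling and were not members, are given by their values alone. Psmb9 had 2 to 14 counts per library and Psmb8 had 27 to 70. Psmb8 was at 1.22, 1.35 and 1.11 CPM with DMSO, at 1.96, 1.41 and 1.69 with defactinib, 1.37, 1.27 and 1.44 with VS-4718, 2.14, 1.96 and 1.36 with GSK2256098 and 1.57, 1.61 and 1.49 with IN10018. Psmb8 reached 2.16, 2.09 and 2.15 CPM with PROTAC FAK degrader 1, 2.69, 2.67 and 3.46 CPM with GSK215 and 2.18, 2.28 and 2.25 CPM with BSJ-04-0146. All 9 degrader libraries of Psmb8 were above the DMSO libraries, and the kinase inhibitor libraries lay between 1.27 and 2.14 CPM, overlapping the PROTAC FAK degrader 1 libraries at the top. Psmb10 was at 37.0, 34.6 and 38.8 CPM with DMSO, at 29.0, 30.4 and 29.0 with defactinib, 33.3, 33.2 and 34.1 with VS-4718, 37.1, 34.3 and 36.6 with GSK2256098 and 36.1, 37.6 and 38.8 with IN10018. Psmb10 stood at 24.3, 18.3 and 19.4 CPM with PROTAC FAK degrader 1, at 37.7, 34.9 and 38.0 with GSK215 and at 33.2, 35.6 and 31.6 with BSJ-04-0146. The 3 PROTAC FAK degrader 1 libraries were the lowest of all 24 for Psmb10.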

How the data were processed

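RNA from 24 libraries of MS03 cells (8 groups of 3 biological replicates) was read from a table of raw counts that the authors deposited, whole numbers of reads per Ensembl gene with no normalization. The submitters' processing notes name Trimmomatic 0.36, STAR 2.5.2b, featureCounts of Subread 1.5.2 and GRCm38; the strand setting and annotation release are not given in the sources used here. All 24 columns matched a sample label, and 0 were left out. Total counts ranged from 14472462 to 27449516, floors cover counting error only, and p values and the 95% intervals of differences measure the spread between these replicates. The chi-square per degree of freedom was 1.74 to 8.81 over 24 pairs of replicates, so none was counted as a copy.

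A quasi-likelihood model was fitted to the 24 libraries with edgeR 4.0.16 under R 4.3.3, using TMM scaling, the filterByExpr filter, a coefficient for each of the 8 groups and 16 residual degrees of freedom. In each of 11 comparisons the two-sided p values of the 16070 genes that passed the filter were adjusted together (Benjamini-Hochberg), and 0.05 was the threshold. Each SE was derived as the absolute log2 difference divided by the square root of the F statistic of its test. The 95% intervals were built from these SE. The scripts were tested on simulated data. Gene coordinates and exon lengths came from GENCODE M21 (GRCm38), which held 49056 of the 49315 identifiers, and promoters from RefSeq (GRCm38.p6). Of the 43 members tested, 11 share exon bases with another gene. In 13, another gene holds a stretch of at least 95% identity over 200 bases or more, and some of these genes are named in the report. For Psmb7, Psmd1, Psmd13 and Psmg3 that gene was only the one sharing their exons (Nek6, Gm21972, Sirt3 and Gm26938), not a separate copy.

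The members, roles, pathway list and tests were chosen with earlier results of these data known. Named members were, for the class comparison, up to 5 in each direction with the largest change past the threshold, for each other comparison up to 2, and by role Psmb5, Psmb6, Psmb7, Psmd14, Psmd4, the Psme genes, Psmf1, the Psmg genes, Psma8 and Psmb11. Pathway genes were Nfe2l1, Pomp and up to 3 in each direction of the class comparison. Paaf1 of that list was not analysed here. Alternatives were library totals alone, DESeq2 1.42.0, limma 3.58.1 (limma-trend) on log2(CPM + 4), the scale of the study's own values, a fit to unfiltered genes, a block for the replicate number, each library left out in turn, only the 6 libraries of a comparison and the class without PROTAC FAK degrader 1. Libraries thinned to the smallest total and, under library totals, the overlap of libraries and the members lower with several drugs were added after seeing the data.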

Additional observations from a re-analysis of the deposited data

How the results depend on the processing

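For 55 results on single genes, 1053 values under the alternatives gave 1017 with the same direction and side of the threshold, 31 that lost their call, 3 that gained one and 2 that reversed. The reversed ones were Psmb1 in the class comparison without PROTAC FAK degrader 1 (-0.0017, adjusted p = 0.952) and Psmg2 in the class comparison under library totals (0.022, adjusted p = 0.501), the cause was not tested. Outside these 55 results, other calls changed sign under library totals without passing there. These were Psma6, Psmb4, Psmc2 and Psmd8 in the class comparison, Psmb1 and Psmd8 with GSK215, and Psmc2 with PROTAC FAK degrader 1. With only the 6 libraries of a comparison, 20 members passed for GSK2256098 in place of 13 (19.8% of all genes in place of 12.5%), and 11 for IN10018 (9 higher, 2 lower) in place of 5 (19.2% of all genes in place of 13.3%), a fit with fewer samples. Leaving out 1 library gave 8 to 12 members for GSK2256098 (8 without DMSO replicate 2, where 8.28% of all genes passed) and 13 to 30 for GSK215 against BSJ-04-0146 (13 without BSJ-04-0146 replicate 2, where 15.7% of all genes passed). The class count of 41 ran from 39 to 41 in these fits and was 34 under library totals, where 4 members in place of 10 had no overlap of libraries between the classes. That scaling moved the all-gene median from 0.021 to 0.14 with GSK215, from 0.018 to 0.13 with BSJ-04-0146 and from 0.0045 to 0.086 with PROTAC FAK degrader 1. Under it the splits were 3 higher and 30 lower for GSK215 (38.5% and 17.8% of all genes), 6 and 22 for BSJ-04-0146 (37.4% and 18.5%), 10 and 28 for PROTAC FAK degrader 1 against the kinase inhibitors (40.6% and 31.8%), 7 and 13 for VS-4718 (25.0% and 14.9%), and 6 and 1 for IN10018 (7.45% and 5.97%). Members lower with all 3 degraders then numbered 17 in place of 28, and those lower with defactinib, VS-4718 and GSK2256098 numbered 6 in place of 10. Replicate numbers are shared between groups, but deviations of same-numbered libraries correlated between -0.25 and 0.20 (9 of 84 pairs above 0.1, 4 of 24 libraries best with their own number), and the replicate block gave 41 members in the class comparison, 24 with VS-4718 in place of 23 and the same count as without it in the 9 other comparisons. Depth was lower in the degrader libraries, and with thinned libraries 40 members passed in the class comparison, beside 67.7% of all genes.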
